A study of Mus musculus with 20 samples.

Results

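The genes described here encode the nuclear subunits of the respiratory chain and of the ATP synthase, the machinery of oxidative phosphorylation in the inner mitochondrial membrane. They were chosen by gene symbol, from the usual names of the subunits of complexes I to V, and by a mean level of at least 1 TPM (a transcript's level per length, scaled to the same total in every library) in at least 1 group of libraries. Of 24848 genes measured, 83 carried such a name and 81 also passed the level: 37 named for complex I, 4 for complex II, 8 for complex III, 16 for complex IV and 16 for complex V. Levels therefore helped to choose the genes, although no comparison between groups did. The members nearest the threshold were Cox7a1, with a highest group mean of 1.89 TPM, and Cox6a2, with 2.43 TPM. The genes left out were Cox8c, with a highest group mean of 0.44 TPM, and Cox7b2, with 0.07 TPM. The 13 subunits encoded by mitochondrial DNA were not analysed here.

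The libraries, 4 in each of 5 groups, were made from RNA of liver mesenchymal cells of C57BL/6 mice. PMSC denotes portal mesenchymal stem cells, which belong to the stroma of the portal tract. HSC denotes hepatic stellate cells, pericytes of the sinusoids that store vitamin A. No culture is stated for these groups. PMSC-MF-3d and PMSC-MF-7d are myofibroblasts, contractile and matrix-producing cells, derived from the portal cells over 3 or 7 days of culture. HSC-MF-7d are the corresponding stellate-derived cells, placed at 7 days by the titles (followed here) and at 3 days by the series description. No genetic change or drug is named for any group, and neither the age of the mice nor whether replicates came from separate animals is given in the labels, so p-values measure the spread between these libraries only.

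Complex I takes electrons from NADH and complex II takes them from succinate, as a step of the citric acid cycle. Both pass them through ubiquinone to complex III and then, through cytochrome c, to complex IV, which reduces oxygen. Complexes I, III and IV pump protons, and the ATP synthase (complex V) lets them flow back to make ATP. Stellate cells that become myofibroblasts in culture are known to raise both glycolysis and mitochondrial activity.

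The expected counts of a library summed to between 11810532 and 26675589. The labelled cell types were checked against marker genes. Portal fibroblast markers summed to 15287 to 18195 TPM in PMSC and to 25.0 to 54.2 TPM in HSC. The 8 stellate markers summed to 6871 to 10104 TPM in HSC and to 499 to 808 TPM in PMSC. All 8 had a mean of at least 1 TPM in PMSC too. The HSC libraries also carried markers of other liver cells. There 13 hepatocyte markers, all above 1 TPM on average, summed to 5258 to 21499 TPM, highest in libraries 1 and 2. Over the HSC libraries 11 Kupffer cell markers summed to 4496 to 15204 TPM and 11 endothelial markers to 4334 to 5708 TPM. In PMSC the hepatocyte sum was 736 to 1300 TPM, and in the 3 cultured groups it was at most 5.55 TPM with Alb and the rest at or near 0. The part of these cells in the comparisons with HSC was not tested. Without HSC libraries 1 and 2, where the hepatocyte markers were highest, none of the 14 counts of called members below moved by more than 1.5 times. In that setting 10 calls of named members were lost. The remaining HSC libraries carried markers of other liver cells too, and the endothelial sum was highest in library 4, at 5708 TPM. Such mixed RNA gives 1 level per library, in which fewer cells of a type and less RNA per cell cannot be told apart.

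Of the 81 genes, 67 had an entry among the RefSeq promoter windows of the GRCm38.p6 build, which run from 250 bases before to 50 bases after a transcript start, with 72 windows in all. The palindrome CGCATGCG, from the middle of the site of NRF1, a factor known to act on respiratory chain genes, was found in 9 of these windows (12.5%) against 1.87% of all 32851 windows. These belonged to Ndufa8, Ndufa11, Uqcrc1, Uqcr11, Cox6a1, Atp5g2, Atp5j, Atp5k and Atp5l. The sequence CCGGAAG, a core bound by factors of the ETS family such as GABP, was in 22.2% of member windows and 8.86% of all, counting both strands for each motif. AAGATGGC, a YY1 core, was in 13.9% and 2.75%, and TCAAGGTCA, bound by oestrogen-related receptors, was in 2.78% and 0.423%. The searched letters do not contain one another, and at least 1 of the 4 motifs was found in 30 member windows (41.7%) and in 13.0% of all. Member windows held a median of 19 of the dinucleotide CG in their 300 bases, against 7 over all windows. The palindrome and CCGGAAG both contain CG, and the part of this richness in their shares was not tested. Letters that match are a description and not a measured binding site. Members with such letters lay in complexes I to V, among genes that moved in different ways below. The letters are shown in 3 genes whose values are described below, 5′ to 3′ on the gene's strand with 30 bases to either side and the palindrome in capitals. They lie before the transcript starts at chr5:115349082-115349149, chr5:108434411-108434478 and chr15:102671051-102671118, all on the minus strand.
Cox6a1: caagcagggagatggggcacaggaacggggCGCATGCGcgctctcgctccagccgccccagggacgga
Atp5k: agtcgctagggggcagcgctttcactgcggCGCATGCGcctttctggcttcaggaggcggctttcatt
Atp5g2: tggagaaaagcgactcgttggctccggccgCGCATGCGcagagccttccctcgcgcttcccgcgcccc

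The promoters of genes that are expressed everywhere are commonly rich in the dinucleotide CG. A pair is shown here as an example of genes of unlike level and unlike CG, which encode different subunits of complex IV. Cox5a is a subunit found in all cells, and Cox8b is the form of subunit 8 of heart and skeletal muscle. The 250 bases before the start hold 26 CG in Cox5a (chr9:57520982-57521231, plus strand) and 1 in Cox8b (chr7:140900447-140900696, minus strand), in capitals below. The isoform genes Cox6b2 and Cox7a1 hold 8 and 4, and Cox8a, the common form of subunit 8, holds 11. Over the 69 windows of the other 64 members, Cox5a and Cox8a among them, the number ran from 4 to 35, with a median of 14.
Cox5a: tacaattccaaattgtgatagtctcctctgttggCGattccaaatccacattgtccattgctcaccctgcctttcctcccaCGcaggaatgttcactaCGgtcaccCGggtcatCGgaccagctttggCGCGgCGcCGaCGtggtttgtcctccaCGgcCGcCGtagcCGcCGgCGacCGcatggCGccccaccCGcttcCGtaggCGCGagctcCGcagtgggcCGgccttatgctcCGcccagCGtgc
Cox8b: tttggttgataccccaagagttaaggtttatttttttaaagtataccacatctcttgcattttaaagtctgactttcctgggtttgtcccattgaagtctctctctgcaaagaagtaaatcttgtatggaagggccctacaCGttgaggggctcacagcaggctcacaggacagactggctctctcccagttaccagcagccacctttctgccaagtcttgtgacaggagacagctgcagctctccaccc

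Together the 81 genes took up 12310 ± 1564 TPM (SD, n = 4), or 1.23% of the transcripts, in PMSC and 16800 ± 1289 TPM, or 1.68%, in HSC. After culture the sums were 22936 ± 455 TPM in PMSC-MF-3d, 20657 ± 740 TPM in PMSC-MF-7d and 22663 ± 486 TPM in HSC-MF-7d. Every cultured library lay above every uncultured one. The 4 PMSC libraries ran from 10321 to 14141 TPM, all below the 15295 to 18216 TPM of the HSC libraries. The order of the group means was thus PMSC, HSC, PMSC-MF-7d, HSC-MF-7d and PMSC-MF-3d, and the highest pair, HSC-MF-7d at 22182 to 23292 TPM and PMSC-MF-3d at 22494 to 23381 TPM, overlapped. These sums are a description, because levels helped to choose the genes. They also follow the scale of library totals, on which PMSC stands lower than by the trimmed means used in the tests below. In those tests complex IV had 4 genes higher and 2 lower in PMSC than in HSC, with a median log2 fold change of 0.10. With library totals it had 2 higher and 7 lower, with a median of -0.24.

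**Figure D1:**
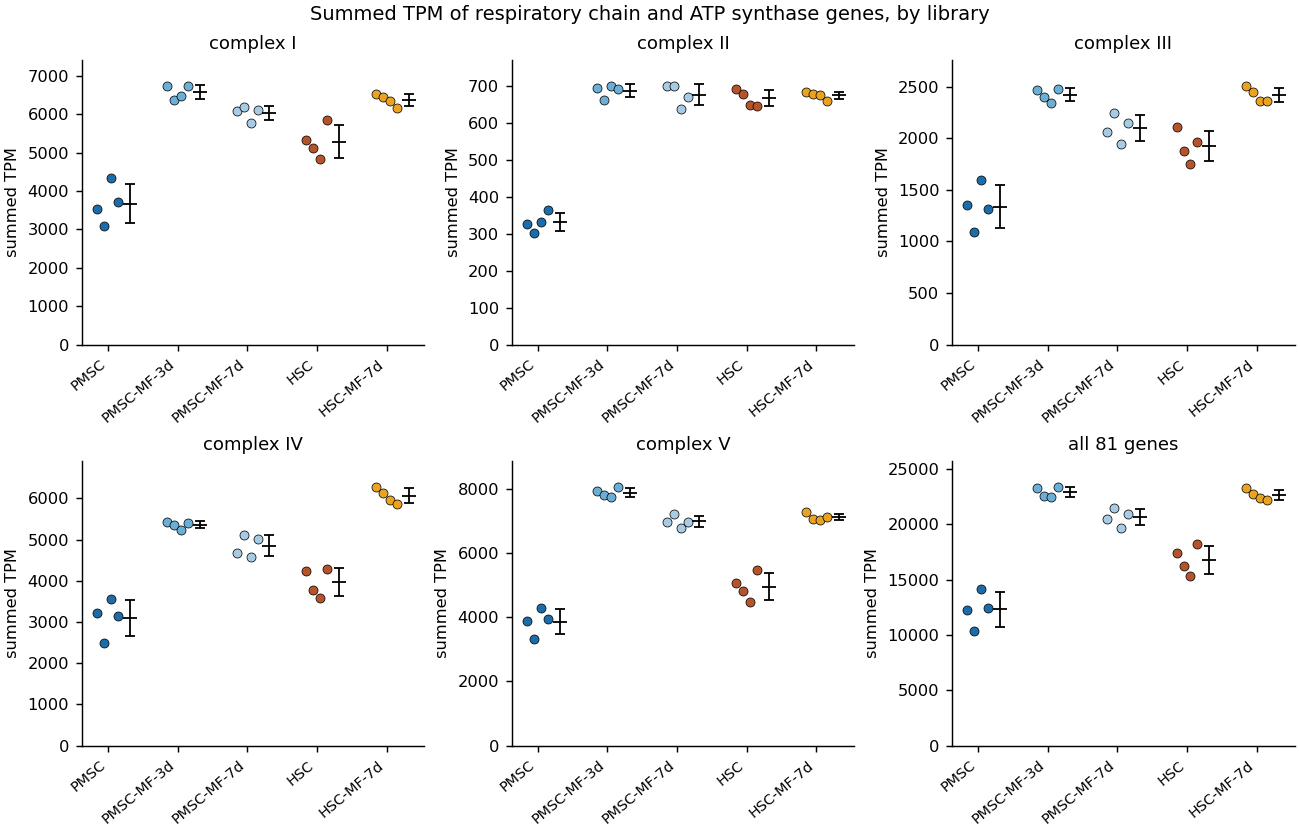
Summed TPM of the genes of each complex and of all 81 genes (vertical axes from 0, scaled per panel) in the 20 libraries, by group; points are libraries, and the bar beside them is the mean with its SD (n = 4). The 4 PMSC libraries are the lowest in every panel, and complex II stands at 638 to 699 TPM in all libraries of the other 4 groups.

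Fold changes were tested with edgeR's quasi-likelihood test on the expected counts of 14751 genes with enough counts, Benjamini-Hochberg adjusted over all of them, and an adjusted p under 0.05 was called. Of the 81 members 79 were tested, all but Cox6a2 and Cox7a1. The counts include Ndufa4l2, Cox4i2, Cox6b2 and Cox8b, which met the level rule only in some groups and so support nothing by their calls. In PMSC-MF-3d against PMSC 52 members were higher, where 37.2% of all genes were, and 11 lower, where 41.1% of all were. In PMSC-MF-7d against PMSC-MF-3d 4 were higher (18.6% of all genes) and 29 lower (17.4% of all). In PMSC-MF-7d against PMSC 39 were higher (38.1%) and 12 lower (39.0%), and in HSC-MF-7d against HSC 31 were higher (36.0%) and 13 lower (38.5%). In PMSC against HSC 13 were higher (33.6%) and 34 lower (40.1%), and in PMSC-MF-7d against HSC-MF-7d 7 were higher (23.9%) and 16 lower (23.1%). As shares of the 79, the 65.8% that were higher in PMSC-MF-3d lay above the share of all genes and the 39.2% that were higher in HSC-MF-7d lay near it. The 43.0% that were lower in PMSC lay near the share of all genes too. In the other direction, 16.5% were lower in HSC-MF-7d than in HSC and 16.5% higher in PMSC than in HSC. Both lay below the shares of all genes, 38.5% and 33.6%. From 3 to 7 days 36.7% were lower, above the 17.4% of all genes. Several of these comparisons share libraries and are not independent. Without PMSC library 2, 20 members were higher in PMSC than in HSC, and the 4 higher at 7 than at 3 days became 1 or 2 without any 1 of the 8 libraries compared, without HSC library 3 or without HSC-MF-7d library 1 or 2.

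The median member log2 fold change was 0.59 in PMSC-MF-3d against PMSC, where the median of all genes was -0.07. It was -0.25 from 3 to 7 days of portal culture and 0.30 in PMSC-MF-7d against PMSC, with medians of all genes of 0.00 in both. It was 0.16 in HSC-MF-7d against HSC (all genes -0.03) and -0.19 in PMSC against HSC (all genes -0.10). Scaling mattered for the contrasts with PMSC. When library totals alone were used in place of trimmed means (TMM), the median of all genes moved to -0.44 in PMSC against HSC, and to 0.41 and 0.43 in the 3-day and 7-day portal cultures against PMSC. The split of calls over all genes moved with it, from 47.5% higher to 61.7% for 3 days of portal culture, from 49.4% to 63.5% for 7 days and from 45.6% to 33.3% for PMSC against HSC. The member median relative to that of all genes was 0.66 and 0.68 in PMSC-MF-3d against PMSC, 0.30 and 0.33 in PMSC-MF-7d against PMSC, and -0.10 and -0.10 in PMSC against HSC, by TMM and by totals. TPM values follow the scale of totals, so that a TPM ratio against PMSC runs above the tested fold change.

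**Figure D2:**
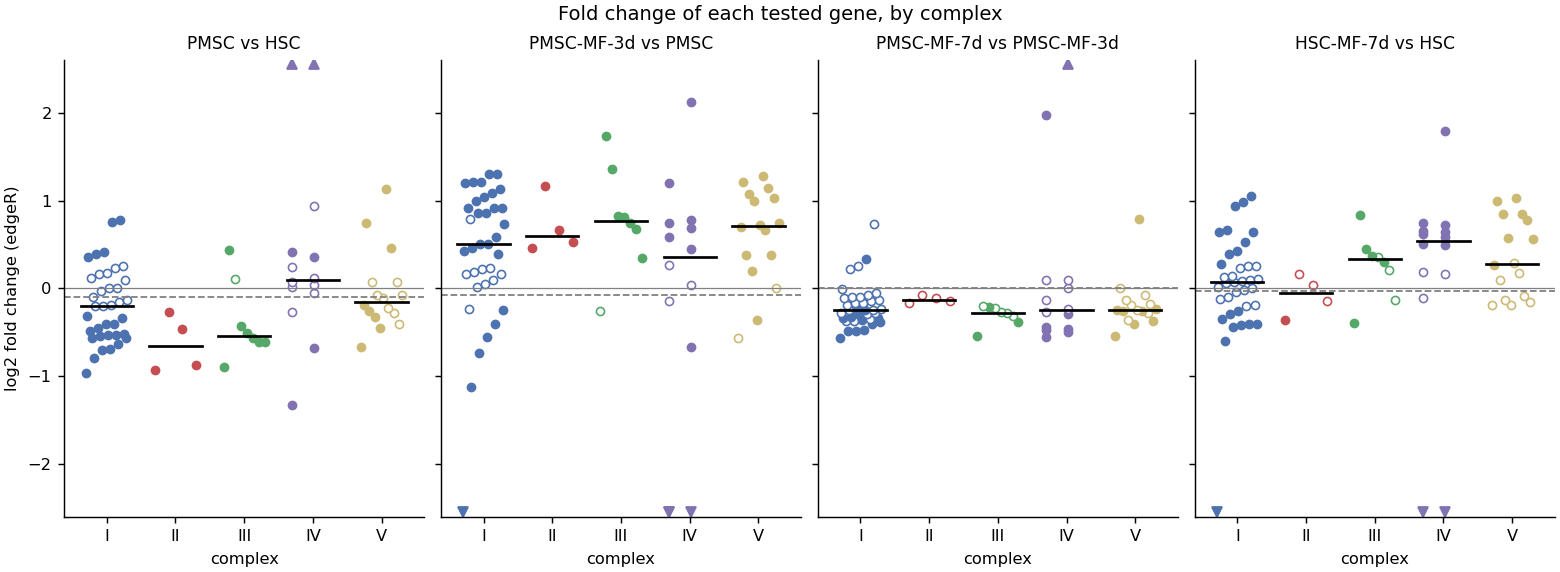
The edgeR log2 fold change of each of the 79 tested genes in 4 comparisons (panels), by complex; filled points passed an adjusted p of 0.05, bars are medians of the complex, the dashed line is the median of all 14751 genes, and triangles are genes beyond the axis. All complexes have medians above the dashed line in PMSC-MF-3d against PMSC, while in HSC-MF-7d against HSC that of complex II is -0.05 and that of complex IV is 0.54.

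Complex I rose over the first 3 days of portal culture in the greater part of its genes. In PMSC-MF-3d against PMSC 21 of 37 were higher and 6 lower, with a median log2 fold change of 0.50. These were 56.8% and 16.2%, beside 37.2% and 41.1% of all genes. In PMSC-MF-7d against PMSC 15 were higher and 6 lower, with a median of 0.21. The 40.5% higher lay near the 38.1% of all genes, and the 16.2% lower lay below the 39.0% of all. Of the 7 core subunits, which are shared with bacteria and carry the flavin and the iron-sulphur clusters, 5 were higher and 1 lower. Ndufs7 was not called, at 83.6, 59.5, 113 and 90.6 TPM in PMSC and 109 to 124 TPM in PMSC-MF-3d, with PMSC library 3 inside the latter range. From 3 to 7 days 13 of the 37 fell (35.1%, all genes 17.4%) and 1, Ndufv3, rose (2.7%, all genes 18.6%). Over stellate culture 10 rose and 9 fell, and of the core subunits 1 rose and 3 fell. The 27.0% that rose and 24.3% that fell were both below the shares of all genes, 36.0% and 38.5%.

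Ndufa4, named for complex I but later assigned to complex IV, had the highest mean of this name group over all libraries, with Ndufa3 above it in PMSC. Its level was 227, 206, 313 and 235 TPM in PMSC and 772, 735, 765 and 829 TPM in PMSC-MF-3d. Its HSC libraries ran from 445 to 528 TPM and its HSC-MF-7d libraries from 802 to 896 TPM, so that neither culture overlapped its source. By edgeR with Benjamini-Hochberg adjustment the log2 fold change was 1.30 ± 0.13 (SE) in PMSC-MF-3d against PMSC (adjusted p = 1.1e-08) and 0.66 ± 0.12 in HSC-MF-7d against HSC (adjusted p = 7.1e-05).

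Ndufb7, an accessory subunit of the membrane arm, was lower in PMSC than in all other groups. Its level was 59.2, 54.2, 93.1 and 60.9 TPM in PMSC, 139 to 194 TPM in HSC and 177 to 222 TPM over all cultured libraries. It rose by 1.30 ± 0.14 on the log2 scale in PMSC-MF-3d against PMSC (adjusted p by edgeR = 7.3e-08), while the change in HSC-MF-7d against HSC was 0.13 ± 0.14 (adjusted p = 0.40). The difference between the change over 7 days of portal culture and that of stellate culture was 1.07 ± 0.20 on the log2 scale (adjusted p = 0.00012). Ndufa12, another accessory subunit, rose by 1.20 ± 0.15 in PMSC-MF-3d (adjusted p = 5.9e-07) and then changed by -0.57 ± 0.15 from 3 to 7 days (adjusted p = 0.0049). In stellate culture the largest rise of the complex was that of Ndufb6, from 117 to 154 TPM in HSC to 275 to 304 TPM in HSC-MF-7d (log2 fold change 1.05 ± 0.13, adjusted p = 2.6e-07). Ndufb6 shares 39.0% of its annotated exon bases with Smim27 on the opposite strand, and reads of overlapping genes cannot be told apart, because the strand setting of the counting is not given here. In total 24 of the 81 members share annotated exon bases with another measured gene.

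Complex I genes called lower by TMM in PMSC-MF-3d against PMSC included Ndufa4l2, described with the isoforms below, Ndufa6, Ndufv3, Ndufa13 and Ndufb11. With library totals 2 genes of the complex were called lower in place of 6. The mean TPM of Ndufb11 went up, from 151 to 167, so that its fall rests on the scaling. Ndufa13 was at 57.9 to 84.9 TPM in PMSC and, within that range, at 66.2 to 73.1 TPM in PMSC-MF-3d. Ndufv3, a small subunit next to the flavin site, went from 116, 89.2, 159 and 143 TPM in PMSC to 96.7 to 107 TPM in PMSC-MF-3d, with overlap (log2 fold change -0.55 ± 0.12, edgeR adjusted p = 0.00051). With library totals this was -0.05 (adjusted p = 0.75). At 7 days it stood at 130 to 156 TPM, above every 3-day library (0.34 ± 0.12, adjusted p = 0.039, with library totals 0.29 and adjusted p = 0.11). Ndufa1, an accessory subunit encoded on the X chromosome, was lower in PMSC-MF-7d, at 149 to 166 TPM, than in HSC-MF-7d, at 230 to 238 TPM (-0.61 ± 0.12, adjusted p = 0.00026). Its TPM in PMSC was 122 to 182, and its change over 7 days of portal culture was -0.34 ± 0.12 by TMM (adjusted p = 0.014) and 0.12 with library totals, so that the direction rests on the scaling.

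Complex II was lower in PMSC than in HSC and PMSC-MF-3d in all 4 genes, and its sum, though not each gene, stood near one level in the other groups. Its summed level was 331 ± 25.0 TPM (SD, n = 4) in PMSC against 665 ± 21.8 TPM in HSC, 686 ± 17.6 TPM in PMSC-MF-3d, 676 ± 29.2 TPM in PMSC-MF-7d and 673 ± 10.1 TPM in HSC-MF-7d. No PMSC library exceeded 363 TPM and no other library fell below 638 TPM. All 4 genes were called lower in PMSC than in HSC, all 4 were called higher in PMSC-MF-3d than in PMSC, none was called between 3 and 7 days, and none was called between the 7-day cultures. No complex II gene passed an unadjusted p under 0.05 in those last 2 contrasts, and DESeq2 called none and 1. The call of Sdhb in PMSC against HSC was lost by DESeq2 (-0.21, adjusted p = 0.11), with the compared groups alone (-0.18, edgeR adjusted p = 0.29), without HSC libraries 1 and 2 (-0.08, adjusted p = 0.56) and when any of 4 single libraries was left out.

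Sdha encodes the flavoprotein that oxidises succinate. Its level was 81.5, 87.5, 81.4 and 104 TPM in PMSC, 218 to 224 TPM in HSC, 161 to 176 TPM in PMSC-MF-3d and 184 to 188 TPM in HSC-MF-7d. It was thus the member of the complex that fell in stellate culture, with -0.36 ± 0.06 on the log2 scale (adjusted p by edgeR = 2.4e-05), while it rose by 0.53 ± 0.06 in PMSC-MF-3d against PMSC (adjusted p = 1.6e-07). Hepatocytes are rich in mitochondria, and the hepatocyte marker sums given above for HSC stand beside this fall. Their part was not tested.

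Sdhd, a membrane anchor, was at 57.7, 58.8, 58.1 and 54.3 TPM in PMSC, at 149 to 179 TPM in PMSC-MF-3d, at 122 to 155 TPM in HSC and at 155 to 175 TPM in HSC-MF-7d. It rose most of the 4 in portal culture, by 1.17 ± 0.10 on the log2 scale (edgeR adjusted p = 2.1e-09). The iron-sulphur protein Sdhb went from 73.1 to 91.3 TPM in PMSC to 159 to 183 TPM in PMSC-MF-3d (0.67 ± 0.11, adjusted p = 1.4e-05). The other anchor, Sdhc, went from 83.2 to 121 TPM to 176 to 186 TPM (0.46 ± 0.08, adjusted p = 3.2e-05). In neither gene did the groups overlap. In HSC-MF-7d against HSC the log2 fold changes were 0.16 ± 0.10 for Sdhd, 0.04 ± 0.11 for Sdhb and -0.14 ± 0.08 for Sdhc, with adjusted p = 0.15, 0.75 and 0.12.

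The change over 7 days of portal culture minus that of stellate culture tests this contrast itself. Over all genes 31.4% were called higher and 29.2% lower in this difference, and of the 79 members 26 were higher and 13 lower. All 4 complex II genes were higher, by 0.82 ± 0.09 for Sdha (edgeR adjusted p = 1.3e-07), 0.86 ± 0.14 for Sdhd (adjusted p = 2.9e-05), 0.49 ± 0.11 for Sdhc (adjusted p = 0.001) and 0.46 ± 0.15 for Sdhb (adjusted p = 0.014). With library totals all 4 were called higher as well, and without HSC libraries 1 and 2 Sdhb was not (0.28, adjusted p = 0.12). Of the core complex I subunits 5 of 7 were higher and 1 lower, and of complex III 4 of 8 were higher and 1 lower. Complex IV had 2 of 14 higher and 6 lower with a median of -0.40, but with library totals 3 were higher and 1 lower with a median of -0.06. Leaving out PMSC library 2 changed the count over all members to 16 higher and 22 lower.

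**Figure D3:**
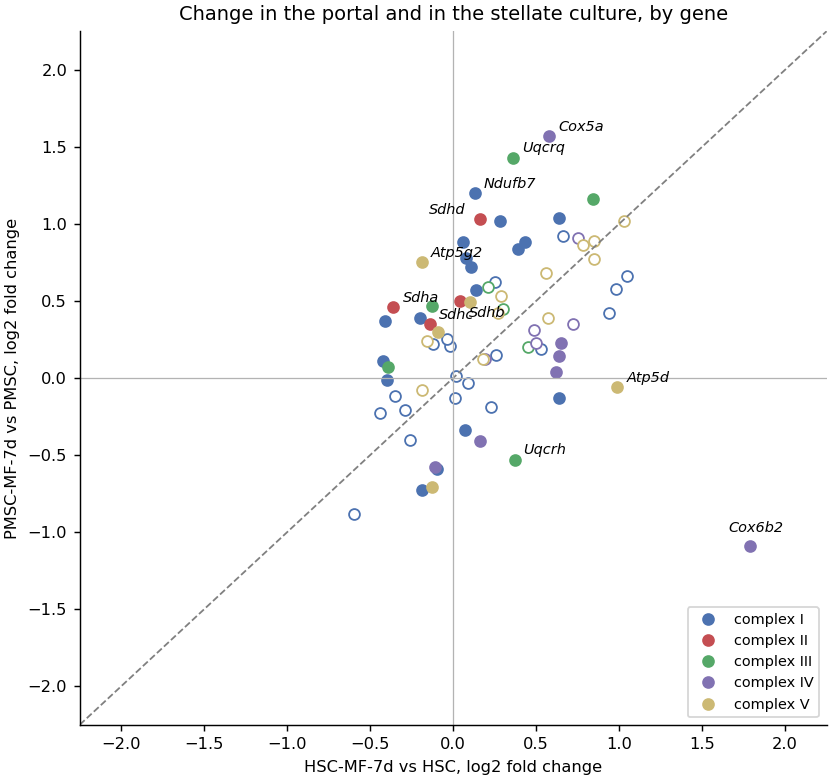
Log2 fold change of each tested gene over stellate culture (HSC-MF-7d against HSC, horizontal) and over 7 days of portal culture (PMSC-MF-7d against PMSC, vertical), coloured by complex and filled where the difference between the cultures passed an adjusted p of 0.05; the dashed line marks equal change. The 4 complex II genes lie above the line with horizontal values of -0.36 to 0.16, and Cox4i2, Cox8b and Ndufa4l2 lie beyond the axes.

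Complex III was higher in PMSC-MF-3d than in PMSC in 7 of its 8 genes by edgeR, and none was lower, none at an unadjusted p under 0.05 and 1 by DESeq2. The exception was Uqcrh, the hinge protein, which also had the highest mean of the complex over all libraries, with Uqcrb above it in HSC. In HSC-MF-7d against HSC 4 rose and 1 fell. Uqcrc1, a core subunit with the NRF1 letters in its promoter window, went from 85.0, 66.3, 85.5 and 89.9 TPM in PMSC to 260 to 284 TPM in PMSC-MF-3d. In HSC it went from 134 to 150 TPM to 265 to 282 TPM in HSC-MF-7d. Its log2 fold changes were 1.36 ± 0.09 (edgeR adjusted p = 2e-11) and 0.84 ± 0.09 (adjusted p = 3.2e-08), with no overlap in either.

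Uqcrq, a small subunit of the membrane domain, was the largest riser of the complex in portal culture. Its level was 24.8, 22.1, 33.7 and 19.1 TPM in PMSC, 99.0 to 117 TPM in PMSC-MF-3d, 42.2 to 71.0 TPM in HSC and 80.3 to 86.1 TPM in HSC-MF-7d. The log2 fold change was 1.74 ± 0.18 in PMSC-MF-3d against PMSC (edgeR adjusted p = 2.8e-08) and 0.36 ± 0.17 in HSC-MF-7d against HSC (adjusted p = 0.069), and the difference of the cultures was 1.07 ± 0.25 (adjusted p = 0.00095). Uqcrh moved the other way. It was at 384 to 590 TPM in PMSC and 409 to 496 TPM in PMSC-MF-7d, and at 384 to 457 TPM in HSC and 558 to 663 TPM in HSC-MF-7d. Its difference of the cultures was -0.90 ± 0.18 (adjusted p = 0.00027). Its change over 7 days of portal culture, -0.53 ± 0.13 by TMM (adjusted p = 0.00094), was -0.08 with library totals (adjusted p = 0.61). Uqcrb, known as the ubiquinone-binding protein, fell in stellate culture from 435 to 542 TPM to 361 to 426 TPM (-0.39 ± 0.13, adjusted p = 0.0092). The call was lost with library totals (-0.27, adjusted p = 0.086) and without HSC libraries 1 and 2 (-0.26, adjusted p = 0.13). Uqcr10, another small subunit, had the largest fall of the complex from 3 to 7 days of portal culture, from 424 to 501 TPM to 320 to 384 TPM (-0.54 ± 0.12, adjusted p = 0.0019).

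Complex IV had 7 of 14 tested genes higher and 4 lower in PMSC-MF-3d against PMSC, where 37.2% and 41.1% of all genes were. With library totals 10 were higher and 3 lower. Of the 4 lower by TMM, Cox4i2, Cox6b2 and Cox8b passed the level rule only through groups in which they were high. The other was Cox7a2l, at 246 to 317 TPM in PMSC and 211 to 227 TPM in PMSC-MF-3d. In HSC-MF-7d against HSC 9 were higher, Cox6b2 among them, and 2 lower, Cox4i2 and Cox8b, with a median of 0.54. Cox5a was the member with the largest rise of all 79 in PMSC-MF-3d. Its level was 94.6, 84.1, 93.1 and 90.5 TPM in PMSC and 500, 507, 498 and 524 TPM in PMSC-MF-3d. It then stood at 347 to 424 TPM in PMSC-MF-7d, at 215 to 418 TPM in HSC and at 452 to 490 TPM in HSC-MF-7d. All PMSC libraries lay below all others. The log2 fold change was 2.12 ± 0.16 in PMSC-MF-3d against PMSC (edgeR adjusted p = 3.5e-10), -0.55 ± 0.15 from 3 to 7 days (adjusted p = 0.0085) and 0.58 ± 0.16 in HSC-MF-7d against HSC (adjusted p = 0.0023).

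Cox4i1, the common form of the subunit through which the enzyme senses ATP, had the highest mean of the complex over all libraries, with Cox6c above it in PMSC and Cox6b1 in PMSC-MF-3d. Its level was 424 to 607 TPM in PMSC, 639 to 686 TPM in PMSC-MF-3d, 545 to 673 TPM in HSC and 984 to 1058 TPM in HSC-MF-7d. The log2 fold change was 0.04 ± 0.10 in PMSC-MF-3d against PMSC (edgeR adjusted p = 0.71) and 0.64 ± 0.10 in HSC-MF-7d against HSC (adjusted p = 1.1e-05), with a difference of the 7-day cultures of -0.50 ± 0.14 (adjusted p = 0.0051). With library totals that difference was -0.16 (adjusted p = 0.40). Cox6b1, which lies between the monomers of the enzyme dimer, rose in both, by 1.20 ± 0.11 in PMSC-MF-3d against PMSC (adjusted p = 4.5e-09) and by 0.75 ± 0.11 in HSC-MF-7d against HSC (adjusted p = 3.1e-06). Its level was higher in HSC-MF-7d, at 877 to 963 TPM, than in PMSC-MF-7d, at 583 to 719 TPM (a log2 difference of -0.52 ± 0.11 from it, adjusted p = 0.00049). Cox6a1, Cox7a2 and Cox8a, the common forms of 3 other subunits, rose in stellate culture by 0.49 ± 0.10, 0.65 ± 0.11 and 0.62 ± 0.13. Cox8a was also called higher in PMSC than in HSC by TMM (0.36 ± 0.13, adjusted p = 0.018), a direction that was absent on the TPM scale (-0.01), where it was 282 to 495 TPM against 399 to 410 TPM.

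The isoforms of limited tissue range were the genes that passed the level rule only through some groups. There were 6 with a mean under 1 TPM in at least 1 group: Ndufa4l2, Cox4i2, Cox8b, Cox6b2, Cox6a2 and Cox7a1. Because a gene could enter through the group in which it was high, their differences are given as a description.

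Ndufa4l2 is a relative of Ndufa4 known as a marker of pericytes and as a gene induced by low oxygen. Its level was 49.0, 45.6, 39.1 and 30.5 TPM in PMSC and 51.5, 32.7, 83.8 and 46.9 TPM in HSC. In culture it was at most 0.85 TPM at 3 days and 1.69 TPM at 7 days in the portal cells, and in HSC-MF-7d it was at 0, 0, 0.42 and 0 TPM. All uncultured libraries were thus far above all cultured ones, and PMSC and HSC overlapped. Over the 4 libraries HSC had 1271 counts and HSC-MF-7d had 2, a ratio of 687 at equal library size (95% counting interval 190 to 5680). Markers of mural cells (pericytes and smooth muscle) fell beside it. They summed to 574 to 892 TPM in PMSC, 235 to 262 TPM in PMSC-MF-3d, 337 to 537 TPM in PMSC-MF-7d, 3088 to 4996 TPM in HSC and 442 to 493 TPM in HSC-MF-7d. Of 8 tested, 7 were lower in PMSC-MF-3d than in PMSC (41.1% of all genes) and 7 in HSC-MF-7d than in HSC (38.5% of all). Among the 9 listed Higd1b was at 0 in all groups but PMSC. Their part in the values of Ndufa4l2 and Cox4i2 was not tested. Ndufa4 rose in the same cultures. Ndufa4l2 shares 32 exon bases with Shmt2.

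Cox4i2 is the form of subunit 4 found in lung and in smooth muscle and pericytes. Its level was 11.6, 8.41, 1.30 and 12.2 TPM in PMSC and 7.47, 1.88, 8.03 and 5.10 TPM in HSC. It was at 0 in all 4 HSC-MF-7d libraries, at least 32.8-fold lower than in HSC when 3 counts over the group are taken as the floor. In the 3-day portal cells it was at most 0.47 TPM, while at 7 days it was at 2.18, 0.53, 1.85 and 2.31 TPM. PMSC library 3 fell within the range of PMSC-MF-7d.

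Cox8b is the muscle form of subunit 8. Its level was 22.4, 23.1, 15.4 and 13.8 TPM in PMSC and 0.77, 0, 1.58 and 6.61 TPM in HSC, with no overlap. It had no count in any of the 12 cultured libraries. This was at least 59.9-fold lower in PMSC-MF-3d and at least 60.4-fold lower in PMSC-MF-7d than in PMSC, and at least 3.60-fold lower in HSC-MF-7d than in HSC. Its ubiquitous counterpart Cox8a was at 282 TPM or more in every library.

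Cox6b2, known as the testis form of Cox6b1, did not follow the others. Its level was 24.3, 14.4, 23.3 and 13.4 TPM in PMSC, then 1.08, 0.97, 1.24 and 0.27 TPM in PMSC-MF-3d, and again 18.9, 11.6, 7.45 and 13.6 TPM in PMSC-MF-7d. All 3-day libraries lay below all portal libraries of the other 2 stages. In HSC it was at 2.49, 8.73, 0.33 and 3.46 TPM and in HSC-MF-7d at 15.7, 13.4, 16.4 and 7.21 TPM, where HSC library 2 lay above HSC-MF-7d library 4.

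Cox6a2 and Cox7a1, the muscle forms of subunits 6a and 7a, were barely present. Cox6a2 was at 0 in all PMSC libraries and at 4.06, 1.23, 2.13 and 2.31 TPM in PMSC-MF-7d, where its 51 counts make it at least 9.10-fold higher. Cox7a1 had 1 count in PMSC and 10 in HSC, a ratio of pooled counts of 8.63 (95% counting interval 1.23 to 374). By library it was at 0, 0, 1.08 and 0 TPM in PMSC and at 2.27, 5.28, 0 and 0 TPM in HSC. The groups thus overlapped, and no difference between them is drawn from this ratio. It reached at most 5.28 TPM in any library. Intervals and floors cover counting error only, and not the spread between libraries.

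**Figure D4:**
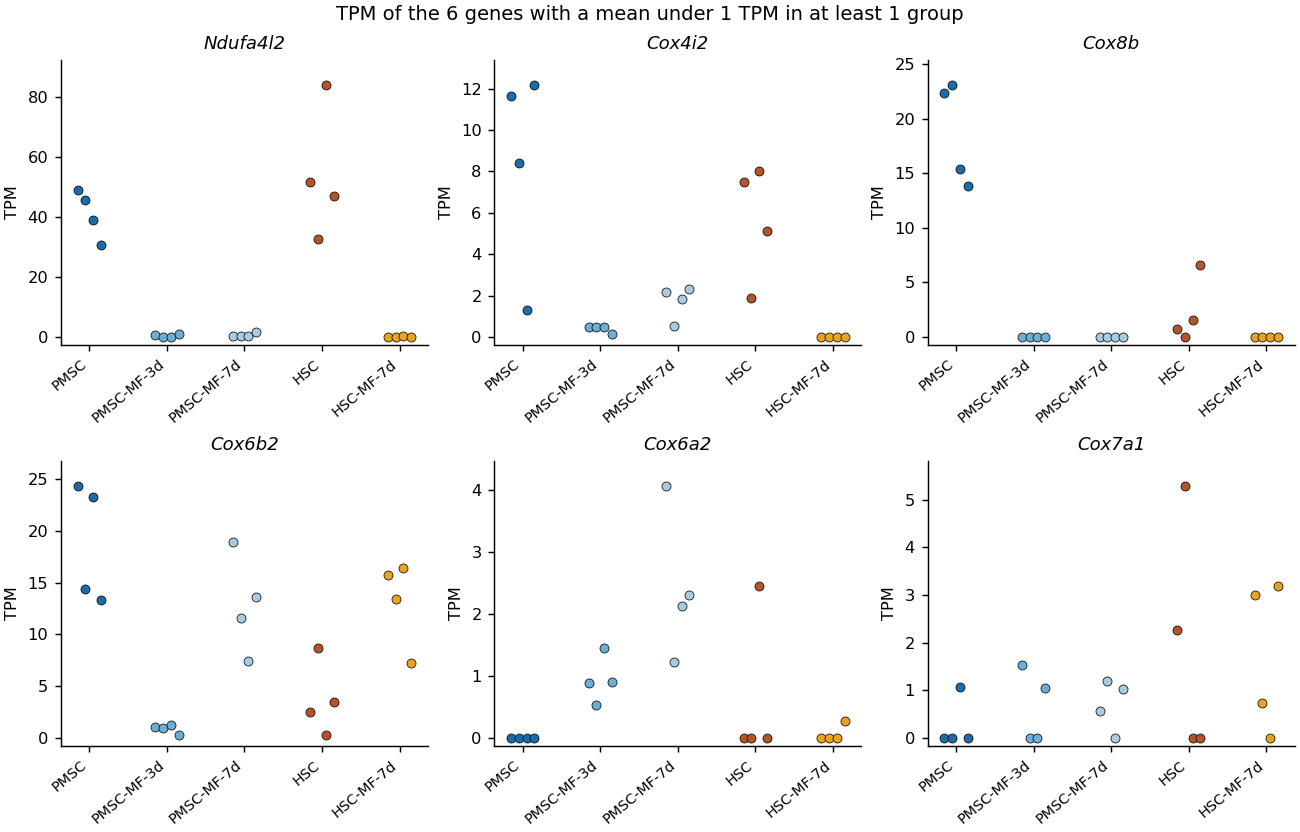
TPM (linear axes, scaled per panel) of the 6 genes with a mean under 1 TPM in at least 1 group, in the 20 libraries by group; points are libraries. Ndufa4l2, Cox4i2 and Cox8b are high only in uncultured groups, while Cox6b2 is low in PMSC-MF-3d, at 0.27 to 1.24 TPM, and above 7 TPM in all libraries of both 7-day cultures.

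Log2 ratios of these genes to their common forms, and of the c subunit genes to each other, were compared in 48 exact permutation tests. With 4 against 4 libraries the smallest 2-sided p an exact permutation test allows is 0.0286. The smallest adjusted value reached was 0.057, so that no ratio was called. A call would have needed more of the 48 tests to reach that smallest p. The lack of calls therefore does not show that the ratios were alike, and no conclusion is drawn from it.

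Complex V was higher in PMSC-MF-3d than in PMSC in 13 of its 16 genes, and 1 was lower. In HSC-MF-7d against HSC 8 rose and none fell by edgeR, also at an unadjusted p under 0.05 and by DESeq2. Atp5b, the catalytic beta subunit, had the highest mean of all 81 genes over the 20 libraries, although not within PMSC, where Atp5e, Cox6c and Cox4i1 were higher. It was at 482, 453, 457 and 549 TPM in PMSC and at 1504, 1543, 1533 and 1542 TPM in PMSC-MF-3d. In HSC it was at 642 to 685 TPM and in HSC-MF-7d at 1425 to 1529 TPM. Both cultures lay far above their sources, with log2 fold changes of 1.28 ± 0.07 (edgeR adjusted p = 3.6e-12) and 1.03 ± 0.07 (adjusted p = 1.4e-10). The difference of the 7-day changes was -0.01 ± 0.10 (adjusted p = 0.98). Atp5f1, the b subunit of the stalk that holds the head in place, rose alongside it, from 86.2 to 105 TPM in PMSC to 232 to 250 TPM in PMSC-MF-3d (0.99 ± 0.09, adjusted p = 2.5e-09). In stellate culture it rose from 140 to 179 TPM to 297 to 317 TPM (0.78 ± 0.09, adjusted p = 9.1e-08).

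The 2 small subunits of the central stalk are delta and epsilon. Atp5d (delta) was at 301, 287, 315 and 267 TPM in PMSC but at 161 to 183 TPM in HSC, and reached 408 to 451 TPM in PMSC-MF-3d and 360 to 398 TPM in HSC-MF-7d. It was higher in PMSC than in HSC by 1.13 ± 0.08 (edgeR adjusted p = 2e-10), and the difference of the cultures was -1.05 ± 0.11 (adjusted p = 1.6e-07). It rose in stellate culture by 0.99 ± 0.08 (adjusted p = 1e-09), while over 7 days of portal culture the change was -0.06 ± 0.08 by TMM (adjusted p = 0.53). Its TPM in PMSC-MF-7d, 376 to 400, lay above every PMSC library, so that this lack of change rests on the scaling. Atp5e (epsilon) was at 459 to 791 TPM in PMSC and 573 to 688 TPM in PMSC-MF-3d. Its log2 fold change there was -0.36 ± 0.14 by TMM (adjusted p = 0.027) and 0.14 with library totals, so that its fall rests on the scaling. It was higher in PMSC than in HSC by 0.74 ± 0.14 (adjusted p = 0.00011), although the TPM ranges overlapped, HSC standing at 402 to 558 TPM.

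The ring of c subunits, which turns as protons pass, is made from 3 genes that encode the same mature protein. Atp5g3 gave the greater part of their summed TPM in each group, 68.7% ± 2.97 (SD, n = 4) in PMSC and 74.3% ± 1.04 in HSC. Atp5g1 gave 20.2% ± 1.44 in PMSC, with 19.7% ± 1.62 at 3 days and 21.2% ± 1.24 at 7 days of culture, but 13.4% ± 1.79 in HSC and 16.7% ± 0.87 in the cells derived from them. The portal libraries, at 18.3% or more, did not overlap the stellate libraries, at 17.6% or less. Atp5g2, with the NRF1 letters in its promoter, gave 12.3% ± 1.67 in HSC and 7.43% ± 0.61 in HSC-MF-7d. All 3 rose in PMSC-MF-3d against PMSC, by 1.21 ± 0.10 for Atp5g3, 1.14 ± 0.13 for Atp5g1 and 1.03 ± 0.15 for Atp5g2. In stellate culture Atp5g2 was not called, its log2 fold change being -0.19 ± 0.15 (edgeR adjusted p = 0.27) beside 0.56 ± 0.10 for Atp5g3. Its level was 64.0 to 91.6 TPM in HSC and 71.3 to 85.2 TPM in HSC-MF-7d, and the difference of the cultures was 0.94 ± 0.22 (adjusted p = 0.00089). Atp5k (subunit e, which joins the enzyme into dimers) was lower in PMSC, at 279 to 339 TPM, than in HSC, at 493 to 714 TPM (-0.67 ± 0.12, adjusted p = 3.2e-05). Atp5s, a coupling factor, was the lowest of the complex, at 2.87 to 12.1 TPM over all libraries, and was the gene of complex V that rose from 3 to 7 days (0.79 ± 0.30, adjusted p = 0.049), a call lost with library totals (adjusted p = 0.068), without the low-count filter (adjusted p = 0.065) and on leaving out any 1 of 15 libraries.

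Genes of the same pathway outside the naming rule were read from lists. Over all genes 37.2% were higher and 41.1% lower in PMSC-MF-3d against PMSC. The shares were 36.0% and 38.5% in HSC-MF-7d against HSC, and 33.6% and 40.1% in PMSC against HSC. Of 9 further subunits and carriers, 8 were higher and 1 lower in PMSC-MF-3d against PMSC. Among them Ndufab1, the acyl carrier protein of complex I, went from a mean of 42.8 to 165 TPM (1.60 ± 0.13, edgeR adjusted p = 8.6e-10) and Cyc1, the cytochrome of complex III, from 66.0 to 208 TPM (1.29 ± 0.11, adjusted p = 2.4e-09). Of 47 assembly factors, which build the complexes without staying in them, 34 were higher and 4 lower, with a median of 1.06. The largest rises were those of Ndufaf1, for complex I, from a mean of 5.35 to 29.3 TPM, and of Sco2, which loads copper into complex IV, from 8.30 to 47.7 TPM. In HSC-MF-7d against HSC 16 assembly factors were higher and 10 lower, with a median of 0.19, and in PMSC against HSC 3 were higher and 26 lower.

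The citric acid cycle feeds the chain. The counts here stand beside 37.2% of all genes higher and 41.1% lower in PMSC-MF-3d against PMSC. In HSC-MF-7d against HSC the shares of all genes were 36.0% and 38.5%. Of its 18 genes with pyruvate dehydrogenase, 14 were higher and 2 lower in PMSC-MF-3d against PMSC, led by Idh3a (mean 30.2 to 151 TPM) and Cs, citrate synthase (61.5 to 292 TPM). In stellate culture 9 were higher and 3 lower. Suclg2, which makes succinate in its GTP form and is abundant in liver, fell there by 1.35 on the log2 scale (SE 0.08, edgeR adjusted p = 1.3e-11), with the hepatocyte markers again falling beside it. Of 20 glycolysis genes 11 rose and 7 fell in PMSC-MF-3d, with Eno1 at 3.54 ± 0.18 and Hk2 at -3.96 ± 0.23, and 17 rose and 2 fell in HSC-MF-7d against HSC. Of 12 tested genes of the hypoxia response none rose (1 at an unadjusted p under 0.05, none by DESeq2) and 8 fell by edgeR in PMSC-MF-3d, among them Epas1 (-4.30 ± 0.24), while 7 rose and 3 fell in HSC-MF-7d against HSC.

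Of 16 tested regulators of mitochondrial biogenesis, 6 were higher and 5 lower in PMSC-MF-3d against PMSC, where 37.2% and 41.1% of all genes were. Polrmt, the mitochondrial RNA polymerase, rose from a mean of 3.06 to 18.2 TPM (2.20 ± 0.14, edgeR adjusted p = 1.4e-11). Myc, a growth regulator known to act on mitochondrial genes, fell from 712 to 104 TPM (-3.16 ± 0.13, adjusted p = 5.3e-14). Ppargc1a, the coactivator PGC-1 alpha, was at 0.335 TPM or less in every group mean. Cycling cell markers moved with the culture in all 6 genes. They summed to 2.47 to 8.58 TPM in PMSC, 27.0 to 34.0 TPM in HSC, 426 to 500 TPM in PMSC-MF-3d, 401 to 490 TPM in PMSC-MF-7d and 194 to 225 TPM in HSC-MF-7d. Their part in the rise of the respiratory genes was not tested.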

How the data were processed

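Each of 20 libraries was deposited as 1 table of 24848 genes by symbol. The labels' protocols name the RNeasy Micro kit for extraction and, for the libraries, KAPA's stranded kit for mRNA. STAR 2.5.3a, RSEM 1.2.28, Trimmomatic, FastQC and the mm10 build are listed without role or setting, per the submitters' processing notes. The deposited expected count of a gene is an estimate that is not normalised, per the file headers. The deposited TPM values sum to the same total in each library, and the deposited FPKM values served only in 1 alternative of the isoform ratios.

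The expected counts, rounded to whole numbers, were tested by edgeR 4.0.16 (R 4.3.3): filterByExpr kept 14751 genes, TMM scaling, a robust quasi-likelihood fit with 1 mean per group over all 20 libraries, and Benjamini-Hochberg adjustment over all tested genes. An adjusted p under 0.05 was called. The SE of a log2 fold change is its size over the square root of F. The fit was also run on simulated data in which few genes changed, as many up as down. That setting does not cover the dependence on scaling, and no conclusion is drawn from it here. Isoform ratios used log2 of TPM + 0.1 and 2-sided exact permutation tests. A group without counts was set at a floor of 3 counts over its 4 libraries. Other settings tried were DESeq2 1.42.0, limma 3.58.1 on log2(TPM + 1), library totals, no filter, the compared groups alone, a replicate block, and leaving out each library. Further settings were added after the values were seen, leaving out HSC libraries 1 and 2 and leaving out members that share exon bases with another gene.

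The members and all gene lists were chosen with earlier results of these data known. Members named are those under 1 TPM in some group, both genes of 8 isoform pairs, the most abundant of each complex, all of complex II, and per comparison and complex the called genes with the largest rise and fall; up to 2 called genes with the largest change and at least 10 CPM were named per other list. Others (Ndufa6, Ndufa13, Ndufb11) were named after their values were seen, and 1 gene is not reported here. Symbols of all 81 members were matched to RefSeq (GRCm38.p6), 2 of them by an older symbol, and exon overlaps come from GENCODE. Many of these genes have near-identical processed pseudogenes, with which RSEM divides shared reads.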

Additional observations from a re-analysis of the deposited data

Results flagged for a closer look

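In each group of 4 libraries the highest or lowest was set against the others for the named members and the sums of the complexes, 220 groups of values in all. By Dixon's 95% critical value for 4 libraries, 11 held a library that stood apart, where chance flags about 1 group in 20. PMSC library 3 stood apart on the high side for Atp5k, at 339 TPM, for Ndufb7, at 93.1 TPM, and for Cox7a1, at 1.08 TPM from a single count, where the other PMSC libraries were at 0. HSC library 4 did so for Atp5k, at 714 TPM, and HSC library 3 for Cox6a2, at 2.45 TPM. PMSC-MF-3d library 2 was high for Cox7a2, at 363 TPM. In PMSC-MF-7d, library 4 was high for Ndufa4l2, at 1.69 TPM, and low for Ndufs7, at 96.1 TPM. In HSC-MF-7d, library 2 was high for Atp5g2, at 85.2 TPM, and library 3 was low for Uqcrc1, at 265 TPM, and for Cox6b1, at 877 TPM.

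The log2 change over 7 days of portal culture minus that over stellate culture passed the edgeR threshold in 21 named members. In complex I it was 1.07 for Ndufb7, -0.77 for Ndufb2 and -0.41 for Ndufa1. In complex II it was 0.82 for Sdha, 0.46 for Sdhb, 0.49 for Sdhc and 0.86 for Sdhd. In complex III it was 1.07 for Uqcrq, 0.45 for Uqcrb, 0.32 for Uqcrc1 and -0.90 for Uqcrh. In complex IV it was 0.99 for Cox5a, -0.50 for Cox4i1, -0.42 for Cox7a2, -0.59 for Cox8a and -2.88 for Cox6b2. The value of 5.06 for Cox4i2 depends on the prior count of the fit, because HSC-MF-7d had no count of it. In complex V it was -1.05 for Atp5d, -0.58 for Atp5e, 0.94 for Atp5g2 and 0.39 for Atp5k. With library totals the differences of Ndufb2, Ndufa1, Cox4i1, Cox7a2, Cox8a and Atp5e were not called. DESeq2 did not call those of Uqcrb (adjusted p = 0.091), Uqcrc1 (0.094) and Atp5k (0.10), and without HSC libraries 1 and 2 these 3 and Sdhb were not called by edgeR (adjusted p = 0.12, 0.14, 0.059 and 0.12). Cox4i2 and Cox6b2 met the level rule only in some groups, so their differences are a description.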

How the results depend on the processing

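Counts of called members kept within 1.5 times of their main value in all 14 cases by DESeq2 and without HSC libraries 1 and 2. Scaling by library totals gave 6 higher in PMSC against HSC, 5 lower in PMSC-MF-3d against PMSC, 1 higher in PMSC-MF-7d against PMSC-MF-3d, 60 higher and 5 lower in PMSC-MF-7d against PMSC, 6 lower in HSC-MF-7d against HSC, and 43 higher and 3 lower in the difference of the cultures. By limma on log2(TPM + 1), with the same counts at a pseudocount of 0.1 and without the filter unless given, there were 6 higher and 54 lower (52 without the filter) in PMSC against HSC, 7 lower in PMSC-MF-3d against PMSC, 16 lower from 3 to 7 days, 65 higher (64 without the filter) and 4 lower in PMSC-MF-7d against PMSC, 8 lower in HSC-MF-7d against HSC, and 44 higher (46 at 0.1) and 4 lower in the difference. Fits of the compared groups alone gave 22 lower in PMSC against HSC and 48 lower from 3 to 7 days, and without a low-count filter 1 was higher from 3 to 7 days. Without the members that share exon bases, fewer genes were counted: 7 higher in PMSC against HSC, 7 lower in PMSC-MF-3d and 7 lower in PMSC-MF-7d against PMSC, 4 higher in PMSC-MF-7d against HSC-MF-7d and 7 lower in the difference.

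Leaving out each library in turn gave 12 to 20 higher in PMSC against HSC, 1 to 3 higher from 3 to 7 days, and 16 to 31 higher and 11 to 22 lower in the difference, where the 20, 16 and 22 came without PMSC library 2. The other counts stayed within 1.5 times. Signs and single calls were followed for the members named by rule, which leaves out Ndufa6, Ndufa13 and Ndufb11. Signs turned for Cox8a in PMSC against HSC (-0.01 by limma in all 3 forms), Atp5e in PMSC-MF-3d against PMSC (0.14 with totals, 0.02 by limma), Ndufa1 in PMSC-MF-7d against PMSC (0.12 and 0.15) and Ndufv3 in HSC-MF-7d against HSC (0.08, and 0.09 at a pseudocount of 0.1, by limma). Single named calls were lost 19 times with totals, 8 by DESeq2, 7 without the filter, 10 with the compared groups alone, 9 with the replicate block and 10 without HSC libraries 1 and 2. The cause was not tested. No isoform ratio was called with TPM + 1 or FPKM + 0.1, where the same limit on the smallest p holds.

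A replicate block, which pairs libraries by number, gave 1 higher from 3 to 7 days in place of 4, and left the other 13 counts within 1.5 times. Same-numbered libraries deviated together with correlations of -0.04 to 0.14 only, so the main fit did not pair them. Between PMSC-MF-7d and PMSC-MF-3d, libraries 1, 2 and 4 correlated best with their own number (0.12, 0.10 and 0.09). Library 3 did not (0.002). Whether those libraries were paired cannot be told from these values. Depth limits the isoforms of a few counts, for which differences under the floor of 3 counts are not detectable.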
